A study of Mus musculus with 4 samples.

Results

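The nuclear genes for subunits of oxidative phosphorylation were examined across 4 RNA-seq libraries of cells sorted from mouse tumors. Oxidative phosphorylation takes place in the inner mitochondrial membrane. Complex I passes electrons from NADH to ubiquinone, complex II (succinate dehydrogenase) passes them from succinate, complex III hands them to cytochrome c, complex IV (cytochrome c oxidase) passes them to oxygen, and complex V (ATP synthase) uses the proton gradient built on the way to make ATP. Most subunits are encoded in the nucleus, among them the core subunits listed below and many short accessory subunits, while a few are encoded in the mitochondrial genome. T cells and macrophages are both known to shift their use of this pathway when they are activated.

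Members were chosen by symbol, with at least 10 counts summed over the libraries. The symbols were Nduf with a letter a, b, c, s or v and a number (complex I), Sdh with a letter a to d (II), Uqcr with letters, a number or both (III), Cox4 to Cox8 with at most a letter a to c, a number and such a letter again (IV), and Atp5 with letters and at most a number after them (V). Of 55367 gene rows, 81 matched the patterns and 78 had enough counts. The other 3 were Cox7b2, Cox8b and Cox8c, all complex IV isoform genes, each at 0 counts in the 4 libraries. Complex I had 36 members, complex II 4, complex III 8, complex IV 13 and complex V 17. The patterns miss some true subunits, such as Cox4i1 and Cyc1, which are given separately at the end. Of the 78 members, 77 were protein coding and 1, Cox6c2, was a processed pseudogene. A low-count filter left 77 for testing, without the muscle isoform gene Cox6a2, whose counts were 7 and 13 in the WT pair and 4 and 4 in KO 1 and KO 2. Many members have near-identical copies elsewhere in the genome. For 34 of them at least 1 other annotated gene matched over 100 or more bases at 95% identity or above, and 28 share exon bases with another gene, so that their counts are uncertain; 36 of the members tested had neither.

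The libraries were made from polyadenylated RNA of cells sorted as CD45.2+CD8+ from tumors grown from the mouse melanoma line B16-F10; 2 carried the label WT and 2 the label KO. The labels gave no Cre driver, age, sex or number of animals, so p-values measure the spread between libraries, which may be technical. The study's tumor-bearing knockout mice were Satb1 F/F with Thpok-cre, a driver that acts in cells committed to the CD4 lineage, and its WT mice were C57BL/6; that the libraries come from the same lines is not given in the labels. Satb1 itself was counted 7 and 5 times in WT 1 and WT 2 against 131 and 55 times in KO 1 and KO 2, which is opposite to the labels, so all directions given here are those of the labels. The markers also went against the sort. The 10 T cell markers summed to 75.7 and 121 CPM (counts scaled to a library total of 1000000) in WT 1 and WT 2 and to 2520 and 1319 CPM in KO 1 and KO 2, all 10 being higher in both libraries labeled KO, whereas 13 macrophage or monocyte markers summed to 30640, 41030, 24010 and 31150 CPM in WT 1, WT 2, KO 1 and KO 2. Of those 13, 8 were lower in normalized CPM in both libraries labeled KO, the median log2 fold change was -0.96, 0 passed the adjusted threshold (4 unadjusted, edgeR quasi-likelihood test) and the median of KO 2 minus KO 1 (log2 of normalized CPM + 1) was 1.40. Among all genes tested, 22.6% were lower in both libraries labeled KO and 25.3% were higher in both. By the same test, 0.574% of all genes passed the adjusted threshold and 13.7% had an unadjusted p under 0.05. The 8 dendritic cell markers summed to 64.5 and 111 CPM against 544 and 424 CPM. Of these, Ccr7 had 20 and 36 counts against 1363 and 1574, and Cd209a 26 and 66 against 666 and 135. Itgax, at 208 and 339 counts against 256 and 440, was the 1 of 6 tested with a fitted value below 0. The 8 melanoma markers summed to 226 and 268 CPM against 2395 and 1315 CPM, and the fibroblast or endothelium markers to 20.7 and 19.2 CPM against 1474 and 203 CPM. The rise in the latter lay in Col1a1, Col1a2, Col3a1 and Dcn. Pecam1 had 51, 63, 70 and 124 counts and Cdh5 1, 6, 1 and 1 in WT 1, WT 2, KO 1 and KO 2. Xist had 435 and 216 counts against 0 and 3, and the Y-linked Ddx3y 0 and 0 against 188 and 81, so group and sex cannot be told apart. Gene counts per library ran from 4017875 to 5382915, and 3 counts corresponded to between 0.557 and 0.747 CPM. The part that these differences have in any result below was not tested.

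The promoters of the members are shown first, because genes of this pathway are known targets of NRF1, of ETS factors such as GABP (also called NRF2) and of YY1, and short cores of their motifs can be read from the sequence. RefSeq windows of 300 bases (GRCm38.p6, 250 before and 50 after the start) were given for 65 of the 78 members, with 70 windows in all. The core of NRF1, GCGCATG, was found on either strand in 13 of them, 18.6% (exact Clopper-Pearson 95% interval 10.3 to 29.7), against 3.91% of 32851 windows of all genes. The ETS core, CCGGAAG, was found in 17, 24.3% (14.8 to 36), against 8.86%. The YY1 core, AAGATGG, was found in 11, 15.7% (8.11 to 26.4), against 6.34%, but before the start it was found in only 1 window, 1.43% against 4.49%. Before the start, the NRF1 core was in 10 windows, 14.3% against 3.24%, and the ETS core in 12, 17.1% against 6.91%. The member windows also had a higher median GC content, 58.0% against 52.7%, which was not matched in these shares, and windows of the same gene overlap. The intervals cover counting error only. The following sites carry the NRF1 core in abundant members of complexes I, II, IV and V, on the strand of the gene and 5′ to 3′, with the core or its reverse complement in capitals.
Ndufa11, chr17:56717692-56717718, plus strand: cctgcactgcGCGCATGcgcgcacgcc
Sdhb, chr4:140961208-140961234, plus strand: gcccagtgggCATGCGCcctacgggcc
Cox6a1, chr5:115349104-115349130, minus strand: caggaacgggGCGCATGcgcgctctcg
Atp5g2, chr15:102671073-102671099, minus strand: ggctccggccGCGCATGcgcagagcct

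In Ndufa11, Cox6a1 and Atp5g2 the core overlaps its own reverse complement, so that the site reads the same on both strands over a longer stretch. The ETS core stood in the following sites of the most abundant members that carried it before the start in each complex, written in the same way.
Ndufb7, chr8:83566728-83566754, plus strand: cctagatgacCCGGAAGacactgaagg
Sdhd, chr9:50603879-50603905, minus strand: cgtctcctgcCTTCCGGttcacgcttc
Uqcr11, chr10:80406871-80406897, minus strand: tctctcctccCCGGAAGtagatgtcaa
Cox6b1, chr7:30626126-30626152, minus strand: cctctcgcagCTTCCGGccagtcggaa
Atp5h, chr11:115419941-115419967, minus strand: aaggagagaaCTTCCGGcaactctctt

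A match is a description of the letters and shows no binding. The log2 fold change (KO over WT, described next) had a median of -0.59 over the 13 members with the NRF1 core and -0.32 over 52 without it, -0.45 and -0.32 for the ETS core (17 and 48 members), and -0.30 and -0.37 for the YY1 core (11 and 54 members).

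The libraries labeled KO were compared with those labeled WT over all genes. None of the 77 members tested passed an adjusted p of 0.05 (edgeR quasi-likelihood test, Benjamini-Hochberg adjustment over 11837 genes), where 0.574% of all genes did, and the smallest adjusted p among members was 0.362. At an unadjusted p under 0.05 there was 1 member, Cox7a1, where 13.7% of all genes fell below that value. DESeq2 called 0 members at the adjusted threshold, where 3.51% of all genes were called, and 7 at the unadjusted one, where 14.4% were. The likelihood ratio test of edgeR called 0 and 2, where 4.7% and 16.4% of all genes were called. The median log2 fold change of the members was -0.35, with quartiles of -0.71 and -0.10, and that of all genes tested was 0.051, with quartiles of -0.48 and 0.70. The members ranged from -1.79 to 0.76 with a median standard error (SE) of 0.47. Fitted values were below 0 for 65 members, 84.4%, against 47.4% of all genes. Normalized CPM (CPM on library sizes scaled by trimmed mean of M-values factors) lay lower in both libraries labeled KO than in both labeled WT for 34 members, 44.2% against 22.6% of all genes, and higher in both for 1 member, Ndufs1, 1.30% against 25.3%. In bulk RNA, fewer cells of a type and less RNA per cell cannot be told apart.

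These levels depend on the scaling. The factors shift KO against WT by 0.34 on the log2 scale. On library totals without factors the members' median was -0.027 and that of all genes 0.39, with 40 members below 0, and the members below in both libraries labeled KO numbered 17, 22.1% against 12.6% of all genes. The members' median minus that of all genes was -0.40 with factors and -0.41 without. It was -0.86 without KO 1 and -0.24 without KO 2. Without KO 1, 40 of 78 members had an unadjusted p under 0.05, against 16.4% of all genes, and none passed the adjusted threshold (edgeR quasi-likelihood test). Without KO 2, Cox7b and Ndufa4 passed it, both higher in KO 1, where 9.71% of all genes passed. In these 2 fits the lone library is assumed to vary as the WT pair does. In the 36 members without a near-identical copy or an overlapping exon, the median log2 fold change was -0.33 and 16 lay lower in both libraries labeled KO, where 22.6% of all genes did.

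**Figure D1:**
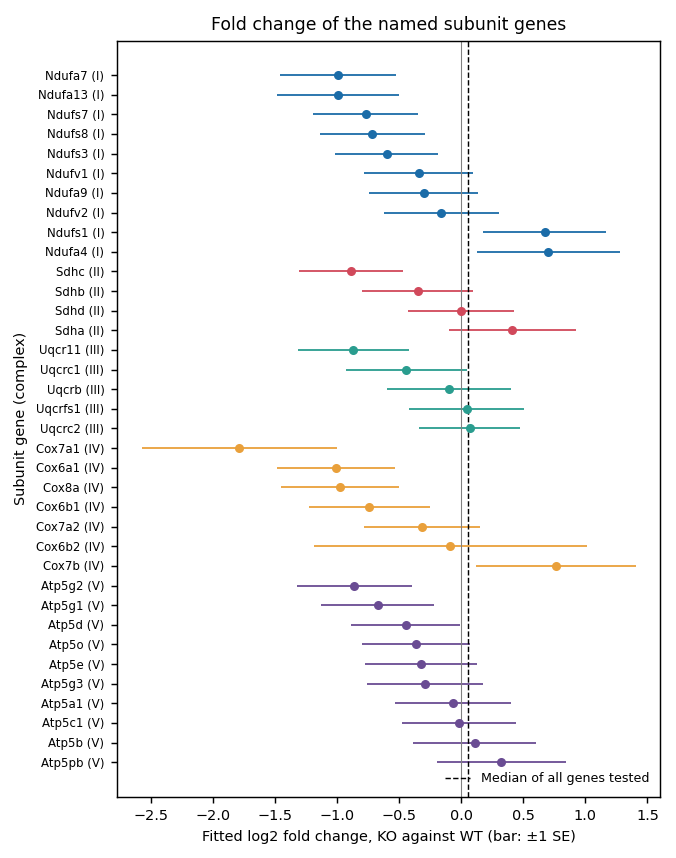
Fitted log2 fold change of KO against WT (horizontal axis) for the subunit genes described by name that were tested, grouped and colored by complex, with bars of 1 SE and a dashed line at the median of all genes tested, 0.051. Most points lie to the left of that line, Cox7a1 at -1.79 being the lowest and Cox7b at 0.76 the highest, and no gene passed the adjusted threshold.

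Complex I has 7 core subunits encoded in the nucleus, which hold the site of NADH oxidation and the chain of iron-sulfur clusters. Ndufs1, the largest of them, had 20.1, 43.8, 48.1 and 53.9 normalized CPM in WT 1, WT 2, KO 1 and KO 2, with a log2 fold change of 0.67 (SE 0.50, edgeR adjusted p = 0.572). Its WT libraries differed more from each other than WT 2 differed from those labeled KO. Ndufv1, which binds NADH and flavin, had 164, 187, 110 and 166 normalized CPM, so KO 2 fell inside the WT range and KO 1 lay below it. The iron-sulfur subunits Ndufs7 and Ndufs8 lay lower in both libraries labeled KO, with 205, 160, 110 and 104 for Ndufs7 and 246, 238, 153 and 141 for Ndufs8, at log2 fold changes of -0.77 (SE 0.42) and -0.72 (SE 0.42). Ndufs3 had 164, 132, 102 and 93, also without overlap. Ndufv2 had 174, 180, 206 and 110, so that the libraries labeled KO lay on both sides of the WT pair.

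The accessory subunits of complex I surround this core. The most abundant member of the complex by mean CPM was Ndufa13, with 474, 373, 277 and 149 normalized CPM and a log2 fold change of -0.99 (SE 0.49, edgeR adjusted p = 0.412); 1 other gene is nearly identical to it. Ndufa7 had the lowest fitted value of the complex, with 348, 216, 167 and 117 and a log2 fold change of -0.99 (SE 0.47, edgeR adjusted p = 0.390). Ndufa9 had 224, 242, 155 and 224, in which KO 1 alone stood low. Ndufa4, first assigned to complex I and since described in complex IV, had the highest fitted value, with 93.8, 125, 274 and 82.4 and a log2 fold change of 0.70 (SE 0.58, edgeR adjusted p = 0.618). That value comes from KO 1, since KO 2 lay below both WT libraries, and without KO 1 it was -0.42 and without KO 2 it was 1.28 (edgeR adjusted p = 0.0437). Of the 36 members of the complex, 32 had fitted values below 0, where 47.4% of all genes did, and 18 lay lower in both libraries labeled KO, where 22.6% did. Ndufb2 was the thinnest, at 4.81, 5.70, 9.89 and 0.698 normalized CPM, and shares exon bases with 3 other genes.

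Complex II consists of 4 subunits and is also an enzyme of the citric acid cycle. Sdha, the flavoprotein that oxidizes succinate, had 120, 210, 147 and 291 normalized CPM, so the groups interleaved, with a log2 fold change of 0.41 (SE 0.51, edgeR adjusted p = 0.757). Without KO 2 it was -0.20. Sdhb, the iron-sulfur subunit, had 436, 424, 364 and 310, with both WT libraries above both labeled KO and a log2 fold change of -0.35 (SE 0.44). The membrane anchors differed from each other. Sdhc had 213, 193, 103 and 116, with a log2 fold change of -0.89 (SE 0.42, edgeR adjusted p = 0.388), and Sdhd had 194, 238, 204 and 226, with both libraries labeled KO inside the WT range.

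Complex III holds the Rieske iron-sulfur protein Uqcrfs1 and the large proteins Uqcrc1 and Uqcrc2, which carry no redox center and were not counted among the core subunits here. Uqcrc1, its most abundant member, had 542, 512, 276 and 500 normalized CPM, with a log2 fold change of -0.44 (SE 0.49). KO 1 stood far below the other libraries, and KO 2 only just below both WT libraries. Uqcrc2 had 98.3, 116, 109 and 116, with no separation of the groups. Uqcrfs1 had 157, 161, 215 and 113, and Uqcrb, a small subunit of the complex, 195, 187, 249 and 107, so in both genes KO 1 was the highest library and KO 2 the lowest. Uqcr11, the shortest member of the complex, had 220, 199, 142 and 87.4, with both libraries labeled KO below both WT libraries and a log2 fold change of -0.87 (SE 0.45, edgeR adjusted p = 0.425).

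In complex IV the nuclear subunits surround a catalytic core that the mitochondrial genome encodes. Cox8a, the ubiquitous form of subunit VIII, was its most abundant member, with 757, 651, 427 and 288 normalized CPM and a log2 fold change of -0.98 (SE 0.48, edgeR adjusted p = 0.406). Cox6a1 had 669, 527, 351 and 243 and Cox6b1 had 654, 514, 436 and 263, at log2 fold changes of -1.01 (SE 0.47) and -0.74 (SE 0.49). All 3 genes were lower in both libraries labeled KO. Cox7a1, the muscle form of subunit VIIa, stood at 13.2, 5.2, 2.66 and 2.62 normalized CPM from 44, 21, 14 and 15 counts, with a log2 fold change of -1.79 (SE 0.79, edgeR unadjusted p = 0.0483 and adjusted p = 0.362), and its WT libraries differed from each other more than WT 2 did from those labeled KO. Without WT 1 the log2 fold change of Cox7a1 was -1.03, and without WT 2 it was -2.36. Cox7b had 66.1, 80.2, 204 and 44.0, so that KO 1 stood above both WT libraries and KO 2 below both. Its log2 fold change was 0.76 (SE 0.64, edgeR adjusted p = 0.629), -0.74 without KO 1 and 1.44 without KO 2 (edgeR adjusted p = 0.0288), and 2 other genes are nearly identical to it. KO 2 was the lowest library for all 12 members of complex IV tested, against 24.1% of all genes tested. Of other genes with 450 coding bases or fewer, 56.0% were lowest in KO 2.

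Cox8a and Cox7b show how unlike the coding sequences of such short subunits can be. Their coding sequences from GENCODE M21 (GRCm38/mm10) are printed with the start and stop codons in capitals. Cox8a (ENSMUSG00000035885.5, chr19:7215153-7217616, minus strand) codes in 210 bases with 64.8% GC, and 82.9% at the third codon position. Cox7b (ENSMUSG00000031231.4, chrX:106015700-106022450, plus strand) codes in 243 bases with 47.3% GC, and 45.7% at the third position.
Cox8a: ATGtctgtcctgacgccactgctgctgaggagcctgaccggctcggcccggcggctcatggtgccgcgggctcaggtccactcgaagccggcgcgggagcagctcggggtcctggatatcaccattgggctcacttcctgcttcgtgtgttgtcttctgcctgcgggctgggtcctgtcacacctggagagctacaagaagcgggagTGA
Cox7b: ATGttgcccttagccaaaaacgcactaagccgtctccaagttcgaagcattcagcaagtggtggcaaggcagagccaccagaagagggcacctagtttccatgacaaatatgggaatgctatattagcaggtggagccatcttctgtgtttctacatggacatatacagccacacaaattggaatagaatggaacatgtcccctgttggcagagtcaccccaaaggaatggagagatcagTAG

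Complex V consists of a membrane ring that turns and a catalytic head. Atp5b, the catalytic beta subunit, was the most abundant member by mean CPM, with 1139, 1145, 997 and 1463 normalized CPM and a log2 fold change of 0.11 (SE 0.50). Atp5a1, the alpha subunit, had 574, 706, 542 and 681, with the groups interleaved. Atp5c1, the gamma subunit of the central stalk, had 407, 483, 506 and 371, and the epsilon subunit Atp5e had 255, 238, 241 and 153. Atp5d, the delta subunit, had 443, 404, 310 and 311, and Atp5o, which links the head to the peripheral stalk, had 326, 367, 272 and 267, both lower in both libraries labeled KO at log2 fold changes of -0.45 (SE 0.44) and -0.36 (SE 0.44). Atp5pb, subunit b of the peripheral stalk, had the highest fitted value, with 175, 296, 395 and 194 and a log2 fold change of 0.32 (SE 0.52). WT 1 and KO 2 lay together at the low end of that range, and 4 other genes are nearly identical to it. Atp5g2, which encodes subunit c of the ring, had the lowest, with 304, 223, 179 and 111 and a log2 fold change of -0.86 (SE 0.46, edgeR adjusted p = 0.446).

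The level of each complex was then summed over its members, as CPM on library totals. Complex I summed to 5123 and 5149 CPM in the WT libraries and to 5744 and 3538 CPM in KO 1 and KO 2. Complex IV summed to 3022 and 2975 CPM against 3302 and 1739 CPM. In both, KO 1 lay above and KO 2 below the WT pair. Complex III had 1451 and 1612 CPM against 1850 and 1296 CPM. Complex V had 4865 and 5706 CPM against 6720 and 5069 CPM, with KO 2 inside the WT range. Complex II had 797 and 1009 CPM against 961 and 1004 CPM, both inside it. All members together took between 1.26% of gene counts, in KO 2, and 1.86%, in KO 1. The log2 ratios of the group means were -0.15, 0.12, 0.039, -0.25 and 0.16 for complexes I to V, and with the scaling factors they were -0.50, -0.20, -0.31, -0.61 and -0.18, so the sign for II, III and V turned with the scaling. On library totals the groups overlapped in every complex, whereas on normalized CPM both libraries labeled KO lay below both labeled WT in every complex, as with 6187 and 5434 against 4896 and 3324 for complex I and 5875 and 6021 against 5728 and 4762 for complex V. With 2 libraries in each group the smallest p that exact permutation allows is 0.333.

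**Figure D2:**
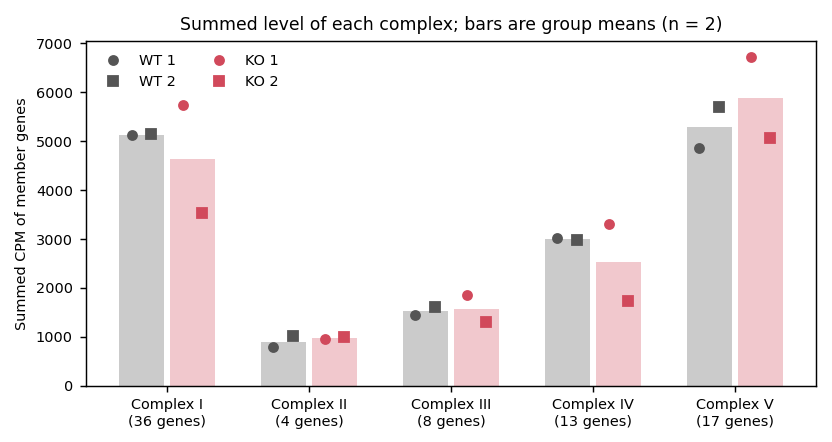
Summed CPM on library totals (vertical axis) of the member genes of each complex in each library, with points for libraries and bars for the mean of 2. The libraries labeled KO lie on both sides of the WT pair in complexes I, III and IV, with KO 1 at 5744 CPM and KO 2 at 3538 CPM in complex I.

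Most members were lowest in KO 2. As a description across genes, which are not independent replicates, the log2(normalized CPM + 1) of KO 2 over the 77 members tested correlated with those of WT 1 and WT 2 at a Pearson's r of 0.93 and 0.97, and those of KO 1 at 0.90 and 0.95, where WT 1 and WT 2 correlated at 0.97. Across all genes tested these values were 0.87 and 0.90 for KO 2, 0.79 and 0.85 for KO 1 and 0.94 for the WT pair, so over all genes KO 1 was the more distant library. The table of KO 2 held fewer reads that did not align, 30.3% against 41.2 to 44.2% in the others, and more reads on no feature, 29.5% against 22.3 to 24.4%, and their part in what follows was not tested. KO 2 was the lowest library in normalized CPM for 63 of 77 members, 81.8% against 24.1% of all genes tested, and for 61, 79.2% against 20.5%, on library totals. KO 2 was below both WT libraries for 68 members, 88.3% against 37.5%. KO 1 was below both for 38, 49.4% against 40.4%, and above both for 26, 33.8% against 43.0%. WT 1 was the highest library for 39 members, 50.6% against 27.6%. The median of KO 2 minus KO 1, on the scale of log2(normalized CPM + 1), was -0.70 for members and -0.037 for all genes tested, while WT 2 minus WT 1 was -0.082 for members. Thus the members differed more between the libraries labeled KO than between those labeled WT. The same held over all genes tested, where Pearson's r was 0.87 for the KO pair and 0.94 for the WT pair.

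**Figure D3:**
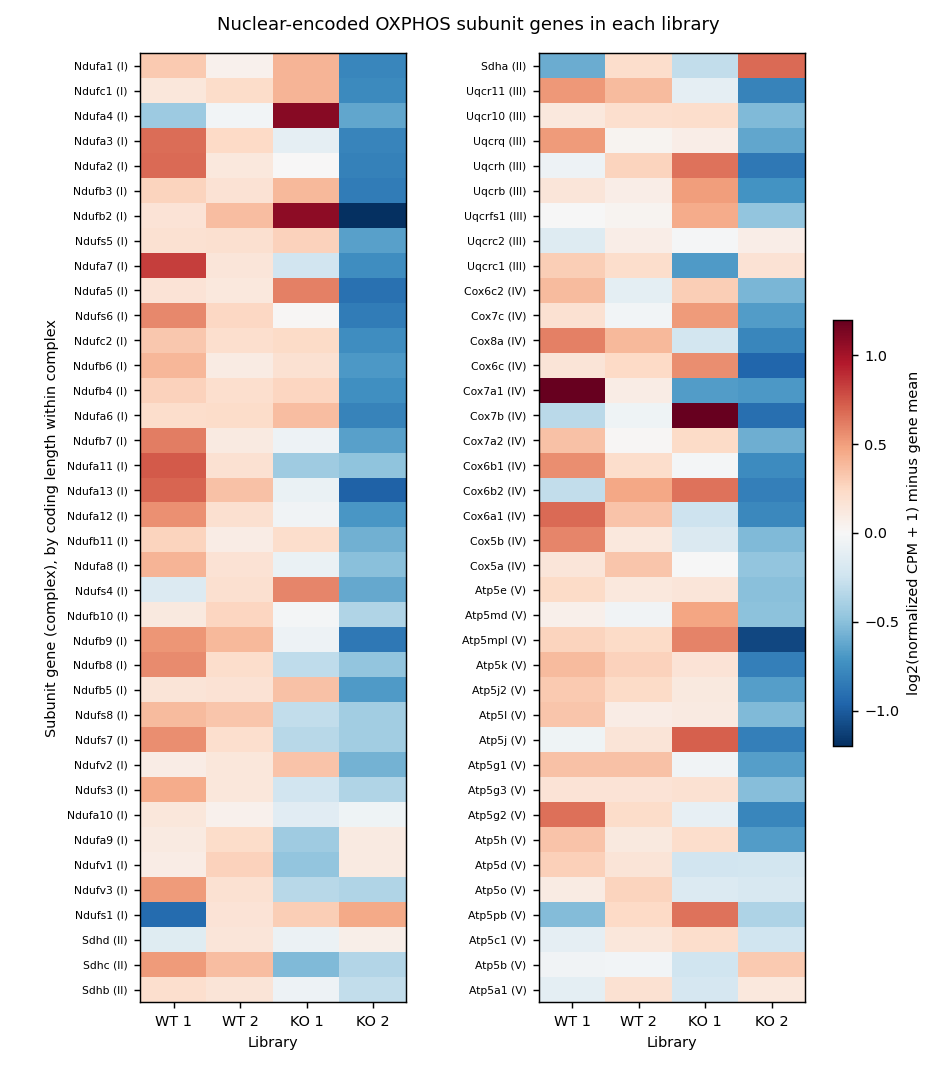
Log2(normalized CPM + 1) minus the mean of the 4 libraries (color, which stops at 1.2 in either direction) for 76 of the 77 members tested, with one gene per row, with its complex in brackets, ordered by complex and then by coding length. The KO 2 column is blue for most short genes, since KO 2 is the lowest library for 63 of 77 members, while KO 1 holds both high values, as in Cox7b, and low ones, as in Uqcrc1.

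The difference between the libraries labeled KO went with coding length, given here without the stop codon. All 22 members of 300 bases or fewer and all 23 of 301 to 450 bases were lowest in KO 2, where 60.4% and 54.1% of other genes of those lengths were. Among the 45, the ratio of KO 2 to KO 1 had a median of 0.55 and ran from 0.0706 in the thin Ndufb2 to 0.983 in Cox7a1. Between 451 and 600 bases 8 of 11 members were lowest in KO 2 (37.4% of other genes), the exceptions being Sdhc, Sdhd and Atp5d. Between 601 and 900 bases 8 of 9 were (29.0% of other genes), without Atp5pb. Of the 11 members over 900 bases only Ndufv3 was, at a ratio of 0.979, against 15.3% of other genes up to 3000 bases, and the ratio of KO 2 to KO 1 had a median of 1.37 and reached 1.98 in Sdha. The median of KO 2 minus KO 1 (log2 of normalized CPM + 1) was -0.89, -0.85, -0.42, -0.23 and 0.45 from the shortest to the longest group, against -0.64, -0.51, -0.26, -0.10 and 0.13 for other genes. Across the 76 members tested with a coding length, Spearman's rho with that difference was 0.63 and Pearson's r 0.70, against 0.10 and 0.076 across 10489 other genes. These are descriptions across genes that share the same libraries. For the fitted log2 fold change of KO against WT, rho with coding length was 0.11 across members and 0.21 across other genes. Removing each library's trend on transcript length moved the members' median log2 fold change of KO against WT from -0.35 to -0.16 and its difference from all genes from -0.40 to -0.15. Whether length itself, RNA quality or another property of short genes underlies this was not tested.

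**Figure D4:**
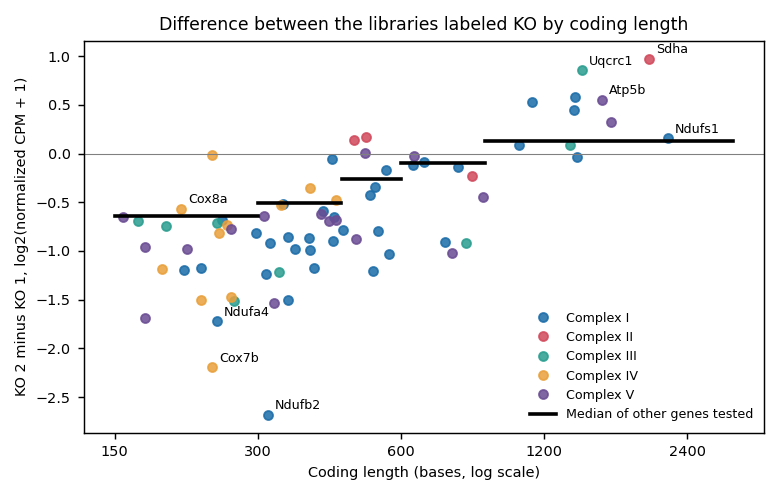
KO 2 minus KO 1 in log2(normalized CPM + 1) (vertical axis) against coding length in bases (horizontal log axis) for 76 members, colored by complex, with black lines at the median of other genes in each length group. Members of 450 bases or fewer lie below 0, the lowest being Ndufb2 and Cox7b, and most over 900 bases lie above it, with Sdha the highest.

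The core subunits were taken as the 7 of complex I, all 4 of complex II, Uqcrfs1 and 6 of complex V (Atp5a1, Atp5b, Atp5c1, Atp5d, Atp5e and Atp5o). The genes for subunit c of the membrane ring, Atp5g1, Atp5g2 and Atp5g3, were not on this list, and each was lowest in KO 2. The median coding length was 806 bases for the 18 core subunits and 344 for the other 59 members tested. KO 2 was lowest for 9 of the 18 and for 54 of the 59. The median of KO 2 minus KO 1 was -0.010 and -0.82 (log2 of normalized CPM + 1), whereas the median of the fitted log2 fold changes was -0.33 and -0.39. Both sets were then split by length. Over 900 bases KO 2 was lowest for 0 of 6 core subunits and 1 of 5 others, with medians of KO 2 minus KO 1 of 0.50 and 0.090, and between 451 and 900 bases for 8 of 11 and 8 of 9, with medians of -0.12 and -0.80. At 450 bases or fewer the core list held only Atp5e, which was lowest in KO 2, as were all 44 others. Of genes outside the members, KO 2 was lowest for 56.0% at 450 bases or fewer. That share was 37.4% at 451 to 600 bases, 29.0% at 601 to 900 and 15.3% at 901 to 3000.

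Differences between libraries also went with another feature, the GC content of the transcript, most of all that between KO 1 and the WT mean. In members under 46% GC the median of KO 1 minus the WT mean (log2 of normalized CPM + 1) was 0.43, and in groups of 46 to 50, 50 to 54 and over 54% it was -0.019, -0.18 and -0.54. Other genes had medians of 0.90, 0.32, -0.18 and -0.60 in the same groups. Spearman's rho of GC content with this difference was -0.66 across 76 members and -0.52 across 10489 other genes, and Pearson's r -0.65 and -0.47. The trend was not particular to KO 1, since rho was -0.42 in members and -0.29 in other genes for WT 2 minus WT 1, and -0.28 and -0.22 for KO 2 minus the WT mean. For KO 2 minus KO 1, rho with GC content was 0.37 in members and 0.41 in other genes. With coding length it was 0.63 and 0.10. Cox7b and Ndufa4, at 42.0% and 44.9% GC, had ratios of KO 1 to the WT mean of 2.79 and 2.50, while Cox8a and Uqcrc1, at 58.5% and 57.5%, had ratios of 0.607 and 0.523. The fitted log2 fold change of KO against WT had a rho with GC content of -0.65 across members and -0.45 across other genes. With each library's trend on GC content removed, the fitted log2 fold change was 0.15 for Ndufa4 and -0.086 for Cox7b, the members' median was -0.34, and its difference from all genes was -0.35. GC content and coding length were almost unrelated among members (Spearman's rho 0.050).

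**Figure D5:**
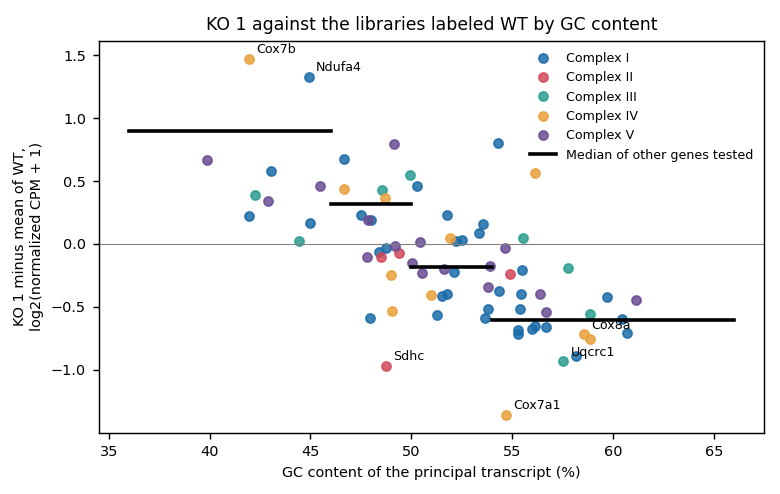
KO 1 minus the mean of the WT libraries in log2(normalized CPM + 1) (vertical axis) against the GC content of the principal transcript in percent (horizontal axis) for 76 members, colored by complex, with black lines at the median of other genes in each GC group. Members low in GC such as Cox7b lie above 0, and those high in GC such as Cox8a and Uqcrc1 lie below it.

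Several subunits exist as isoforms from separate genes, which were compared as CPM per kilobase of exon. The form known from heart and skeletal muscle was rare beside the ubiquitous one. Cox6a2 made up 0.324, 0.626, 0.223 and 0.296% of the sum of Cox6a1 and Cox6a2 in WT 1, WT 2, KO 1 and KO 2. Cox7a1 made up 7.93, 4.09, 1.85 and 3.17% beside Cox7a2, and Cox8b had 0 counts beside 2518, 2630, 2245 and 1651 for Cox8a. The testis form Cox6b2 made up between 0.117 and 0.472% beside Cox6b1. Cox4i2, a form known from lung, made up 3.09, 2.15, 0.347 and 2.73% beside Cox4i1, with 57, 40, 6 and 41 counts, so only the share in KO 1 stood low. Its normalized CPM was 17.1, 9.9, 1.1 and 7.2, with both libraries labeled KO below both WT libraries. These small shares move with the length used, Cox4i2 to 1.67, 1.15, 0.184 and 1.47% with the longest transcript and Cox6b2 to between 0.244 and 0.976% with the principal one.

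Subunit c of ATP synthase comes from the genes Atp5g1, Atp5g2 and Atp5g3. The last 75 codons of the 3 genes translate to an identical protein, although these 225 bases are only 78.7 to 84.9% identical between genes. Per kilobase of exon, Atp5g3 made up 43.2, 48.3, 54.6 and 54.1% of the sum in WT 1, WT 2, KO 1 and KO 2, Atp5g2 made up 40.1, 32.9, 29.5 and 29.3%, and Atp5g1 between 15.9 and 18.8%. Atp5g3 was thus a larger share, and Atp5g2 a smaller one, in both libraries labeled KO than in both WT libraries. The order of the genes rests on the length used. With the length of the principal transcript the mean shares were 36.6% for Atp5g3, 33.5% for Atp5g1 and 29.9% for Atp5g2, whereas with all exons they were 50%, 17.0% and 33.0%.

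Other genes of the pathway and of mitochondria were compared by lists, beside all genes tested, of which 0.574% passed the adjusted threshold, 13.7% had an unadjusted p under 0.05 and 47.4% had fitted values below 0. Of 7 subunits that the symbol patterns missed, 0 passed the adjusted threshold (edgeR quasi-likelihood test, 0 at an unadjusted p under 0.05), all 7 had fitted values below 0 and the median log2 fold change was -0.39. Cox4i1, the main form of the largest nuclear subunit of complex IV, had 1056, 889, 645 and 502 normalized CPM in WT 1, WT 2, KO 1 and KO 2. Of 41 assembly factors tested, 0 passed (2 unadjusted), 24 lay below 0 and the median was -0.21. Coa7, which acts in the assembly of complex IV, had 54.4, 28.5, 12.9 and 8.90 normalized CPM and the smallest p of the list (edgeR adjusted p = 0.173). Of 77 mitochondrial ribosomal protein genes 0 passed (2 unadjusted), 63 lay below 0 and the median was -0.26. Of these 77, 36 lay lower in both libraries labeled KO, where 22.6% of all genes did. KO 2 was the lowest library for 46, 59.7% against 24.1% of all genes. Of 5 genes for cytochrome c, the carriers of ADP, ATP and phosphate and the ATP synthase inhibitor, 0 passed (1 unadjusted) and the median was 0.062. Slc25a4, an ADP and ATP carrier, had 43.0, 92.9, 237 and 121 normalized CPM, higher in both libraries labeled KO (edgeR adjusted p = 0.3).

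Enzymes that feed the chain and regulators of its genes were read in the same way. Of 16 genes of the citric acid cycle and pyruvate dehydrogenase 0 passed (1 unadjusted), 12 lay above 0 and 4 below it, where 47.4% of all genes lay below, and the median was 0.32. KO 2 was the lowest library for 1 of them, against 24.1% of all genes. Dld, a subunit shared by the dehydrogenases of pyruvate and 2-oxoglutarate, had 16.2, 25.8, 71.0 and 43.3 normalized CPM (edgeR adjusted p = 0.252). Their median coding length was 1331 bases. Of 13 regulators of mitochondrial biogenesis 0 passed (1 unadjusted), and the median was 0.26. Ppargc1a, the coactivator PGC-1alpha, was at 0 counts in both WT libraries and at 18 and 31 in KO 1 and KO 2, at least 5.37-fold higher on normalized CPM against 3 counts in each WT library (edgeR unadjusted p = 0.00232, not past the adjusted threshold). Tfam, which packages and transcribes mitochondrial DNA, had 6.61, 10.2, 32.4 and 11 normalized CPM.

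Of 11 protein-coding genes of the mitochondrial genome tested, 0 passed (0 unadjusted) and the median log2 fold change was 0.19, but KO 2 was the lowest library for 10, against 24.1% of all genes, and the median of KO 2 minus KO 1 (log2 of normalized CPM + 1) was -2.04. These genes had a median coding length of 954 bases, unlike the short nuclear subunits. The cytosolic ribosomal protein genes, with a median coding length of 453 bases, were lowest in KO 2 for 77 of 82 tested, against the same 24.1%, with a median of KO 2 minus KO 1 of -1.24 and of KO against WT of -0.046 (0 past the threshold, 3 unadjusted). Cell cycle genes, whose median coding length was 1653 bases, had a median log2 fold change of 1.68, with all 20 above 0, 0 past the threshold and 15 unadjusted (edgeR quasi-likelihood test), against 13.7% of all genes unadjusted.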

How the data were processed

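Per the labels, tumors were dissociated, CD45.2+CD8+ cells were sorted and polyadenylated RNA was sequenced, with 2 libraries labeled WT and 2 labeled KO; groups were taken from the titles. The authors deposited raw read counts per gene symbol, without normalization. The submitters' processing notes name HISAT2 2.1.0, HTSeq 0.11.0 and mm10; the annotation and the strand setting are not given in the sources used here, so overlapping antisense genes can share reads. HTSeq's summary rows were excluded; reads that did not align took 30.3 to 44.2% and reads on no feature 22.3 to 29.5% of each table.

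Counts were analyzed with edgeR 4.0.16 in R 4.3.3 (filterByExpr with a minimum count of 10 and a total of 15, TMM factors, glmQLFit and glmQLFTest on group, two-sided, Benjamini-Hochberg over all genes, threshold 0.05, prior count 0.125). The SE was the log2 fold change over the square root of F. No libraries were the same within sampling noise. Alternatives were DESeq2 1.42.0, other scalings, filters and tests, a replicate block, trends on length or GC content removed (lowess, span 0.3) and each library left out. GENCODE M21 (GRCm38/mm10) gave positions, coding lengths and GC content for 97.0% of symbols, Atp5md and Atp5pb being matched through RefSeq synonyms. Copies were found with blastn 2.17.0 and exon overlaps with bedtools 2.31.1. Promoters were RefSeq windows of GRCm38.p6. Plots were drawn with matplotlib 3.10.9. The scripts were tested on simulated data.

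The members and lists were chosen with earlier results of these data known. Genes were named if past the threshold, among the 2 most abundant or the largest fitted value in each direction in a complex (with 20 or more normalized counts on average in the higher group), core subunits, isoforms, or without overlap at an unadjusted p under 0.05; list genes were the most abundant or those of smallest p. Ndufb2, Ndufv3, Ndufa11, Ndufb7, Atp5h, Cox6c2, Ppargc1a, Tfam, Cd209a, Itgax, Dcn, Pecam1 and Cdh5 were otherwise chosen after their values were seen. 1 core subunit gene is counted among the members but is not reported here by itself.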

Additional observations from a re-analysis of the deposited data

How the results depend on the processing

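With 2 libraries a group, 1 library decides much. The number of members past the threshold was 0 in every setting run, DESeq2 included, except without KO 2, where it was 2; the leave-one-out range was 0 to 2. Among all genes the number past it was 68, and 134 on library totals, 583 without a filter, 416 with DESeq2, 556 with the likelihood ratio test, 153 with the GC trend removed, and 113 to 1248 leaving out 1 library. The members' median log2 fold change was -0.027 on library totals and ran from -0.853 to -0.205 leaving out 1 library, and its difference from all genes from -0.856 to -0.242. Members lower in both libraries labeled KO numbered 17 on library totals. With 1 library left out, which can only raise the count, 38 to 68 lay lower in the libraries that remained; the 68 are the members with KO 2 below both WT libraries (37.5% of all genes) and the 38, without KO 2, those with KO 1 below both (40.4%).

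With the replicate number as a block, 0 members and 215 genes passed, with a median of -0.425 over members; the numbers are only names, since the deviations of WT 1 and KO 1 correlated at -0.179 across 11837 genes. A crossed block, added after seeing the data, called 0 members and 647 genes.

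Scaled by the factors, the log2 ratio of summed CPM was -0.499, -0.202, -0.305 and -0.182 for complexes I, II, III and V. Leaving out 1 library, it ran from -0.538 to 0.162 for complex I, -0.039 to 0.302 for II, -0.241 to 0.273 for III, -0.786 to 0.139 for IV and -0.06 to 0.347 for V. The share of Atp5g1 was 8.15% with the longest and 33.5% with the principal transcript, that of Atp5g3 58.1% and 36.6%, and the YY1 core before the start stood in 1.43% of windows.

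Of 37 named genes, 19 kept their sign in every setting. On library totals the sign turned for Ndufa9 (0.022), Sdhd (0.321), Uqcrb (0.271), Atp5a1 (0.254), Ndufv2 (0.198), Atp5c1 (0.321), Atp5e (0.036), Cox7a2 (0.052), Atp5g3 (0.064) and Cox6b2 (0.261). It turned with upper-quartile factors for Sdhd (0.040) and Atp5c1 (0.032). With the length trend removed it turned for Sdhd (0.207), Uqcrb (0.086), Atp5c1 (0.190) and Cox6b2 (0.007). With the GC trend removed it turned for Uqcrc2 (-0.401), Cox7b (-0.086), Uqcrfs1 (-0.137), Atp5d (0.048) and Cox6b2 (0.351). With the replicate block and the crossed block it turned for Sdhd (0.001 and 0.001) and Uqcrfs1 (-0.029 and -0.028). Leaving out 1 library, it turned within these ranges: Ndufa4 (-0.417 to 1.284), Sdhd (-0.199 to 0.104), Sdha (-0.199 to 0.836), Uqcrb (-0.844 to 0.352), Uqcrc2 (-0.099 to 0.143), Cox7b (-0.741 to 1.443), Atp5b (-0.233 to 0.351), Atp5a1 (-0.278 to 0.082), Atp5pb (-0.282 to 0.709), Ndufv2 (-0.695 to 0.188), Uqcrfs1 (-0.498 to 0.398), Atp5c1 (-0.269 to 0.149) and Cox6b2 (-1.872 to 0.660). The causes were not tested.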
